A study of Mus musculus with 6 samples.

Results

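Blood vessels that enter the embryonic mouse cerebral cortex are represented here by 10 genes, 9 of endothelial cells and the gene of the growth factor that draws vessels in. They were chosen by name. Each gene symbol matched 1 probe of the array annotation, giving 10 of 15070 genes with a single symbol, and all 10 probes had enough values to be tested. The receptor genes are Kdr, Flt1, Tek, Tie1 and Eng, the junction genes are Pecam1, Esam and Cldn5, Plvap encodes a protein of endothelial openings, and Vegfa encodes the ligand. Mutant embryos at E12.5 carried on the copy from their father a LacZ-targeted allele of the imprinted gene Mest (Peg1) that lacks exons 3 to 8. They came from wild-type mothers, so the silent maternal copy was intact, and the controls were wild-type embryos of the same stage. Each of 6 mutant cortices gave the RNA for 1 of 6 arrays with 2 dye channels, with 1 wild-type cortex in the other channel of each. The dye of the mutant was Cy5 for mutants 3, 5 and 6 and Cy3 for mutants 1, 4 and 7. Of 3 wild-type cortices, wild type 2 served for mutants 3 and 1, wild type 8 for mutants 5 and 4, and wild type 9 for mutants 6 and 7. The label of the array of mutant 3 names wild type 1, which the study's design does not list, and it was read as wild type 2. The labels give no strain, sex or litter.

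Vessels grow into the cortical wall from a plexus on its surface. Neural progenitors secrete Vegfa, which binds the tyrosine kinase receptors encoded by Kdr and Flt1 on endothelial cells. Kdr carries most of the growth signal, while Flt1 binds the ligand tightly and also exists as a soluble trap. Tek is the receptor of the angiopoietins and Tie1 is its partner, and endoglin, the product of Eng, is a co-receptor for ligands of the Tgf-beta family. Cldn5 and Esam encode tight junction proteins, Pecam1 an adhesion protein at endothelial contacts, and Plvap the diaphragm protein of fenestrae, which brain vessels lose as the barrier matures.

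Values are given as log2 of the mutant signal over the wild-type signal, relative to the median probe of the same array, unless a sentence says otherwise. Of 21766 probes, 75.4% to 89.9% were measured per array, and 17476 were tested with limma. The deposited ratios hold no signal level, so the markers of cortex and of vessels could not be checked for presence, and levels of different genes cannot be compared. The direction of the ratio was read from the dye labels and from Mest, which lay at -1.36, -1.78 and -1.39 in mutants 3, 5 and 6 and at -1.495, -2.07 and -1.44 in mutants 1, 4 and 7. Mest is thus part of that reading. In whole cortex, fewer endothelial cells and less RNA per endothelial cell cannot be told apart.

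The 2 receptor genes of Vegfa lie on chromosome 5. The 150 bases before a RefSeq transcript start of each are shown, since these receptors read the ligand (RefSeq promoters, build GRCm38.p6). Neither start is the outermost end, as the RefSeq gene spans reach further upstream, to 75979072 for Kdr and 147726438 for Flt1. Kdr is at chr5:75978456-75978605 and Flt1 at chr5:147726012-147726161, both on the minus strand and printed 5′ to 3′ along the gene. Capitals mark matches, on either strand, of an ETS motif (AGGAAG), a GC box (CCGCCC), a cAMP response element (TGACGTCA) and a TATA box (TATAAA). No match of these motifs overlaps another in the windows.
Kdr: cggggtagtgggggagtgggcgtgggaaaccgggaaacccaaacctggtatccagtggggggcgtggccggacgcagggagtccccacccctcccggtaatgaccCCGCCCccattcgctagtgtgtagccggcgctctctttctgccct
Flt1: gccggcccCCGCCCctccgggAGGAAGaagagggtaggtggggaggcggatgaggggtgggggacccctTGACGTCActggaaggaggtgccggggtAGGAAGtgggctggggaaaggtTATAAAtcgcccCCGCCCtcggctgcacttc
The Flt1 window holds matches of all 4 motifs, with the TATA box 31 bases before the start, whereas the Kdr window holds 1 GC box match, 45 bases before its start. Endothelial genes are known for control by ETS factors, and the promoter of human FLT1 is known for ETS and cAMP response elements. RefSeq promoters of 300 bases were matched for 7 of the 10 genes, with 8 entries since Vegfa has 2. Among those 8 the ETS motif stood in 3 (Flt1, Tie1 and Eng), against 35.4% of 32851 mouse promoters of the same length. The GC box stood in 5 of 8, against 35.7%, and the cAMP response element and the TATA box each stood in Flt1 alone, against 1.79% and 13.6%. Pecam1, Esam and Plvap had no entry. The arrays measure transcripts and not the activity of these sequences.

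None of the 10 genes passed the test between mutant and wild-type cortex, and neither did the disrupted gene Mest, at -1.59 with an adjusted p of 0.60 and below 0 on 6 of 6 arrays (limma). A missed threshold in this design therefore does not show that a gene did not change. The fitted ratios ran from -0.43 for Esam to 0.12 for Tek, and the adjusted p-values ran from 0.90 to 0.99 (limma, Benjamini-Hochberg over all probes). With 0 of 10 genes called, the background was also 0%, since no probe of the array passed. At an unadjusted p under 0.05 there were likewise 0 of 10, against 3.93% of all probes, and 0 of 10 had the same sign on every array, against 5.57%. The unadjusted count depended on the settings. When Gapdh control spots set the zero, it was 3 of 10 (Flt1, Tie1 and Vegfa, all higher), against 15.8% of all probes, and on Cy3 arrays alone it was 2 of 10 (Plvap and Eng, both lower), against 10.9%. By mean ratio 5 genes lay above 0 and 5 below, with a median of -0.031, where the median of 12580 tested genes was 0.00075 and 49.8% of them lay below 0. Of the 5 receptor genes 3 lay above 0, and of the 4 genes of junctions and diaphragms 3 lay below, with medians of 0.046 and -0.22. This split depended on the zero: with Gapdh control spots only Esam and Plvap lay below 0, at -0.17 and -0.091.

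**Figure D1:**
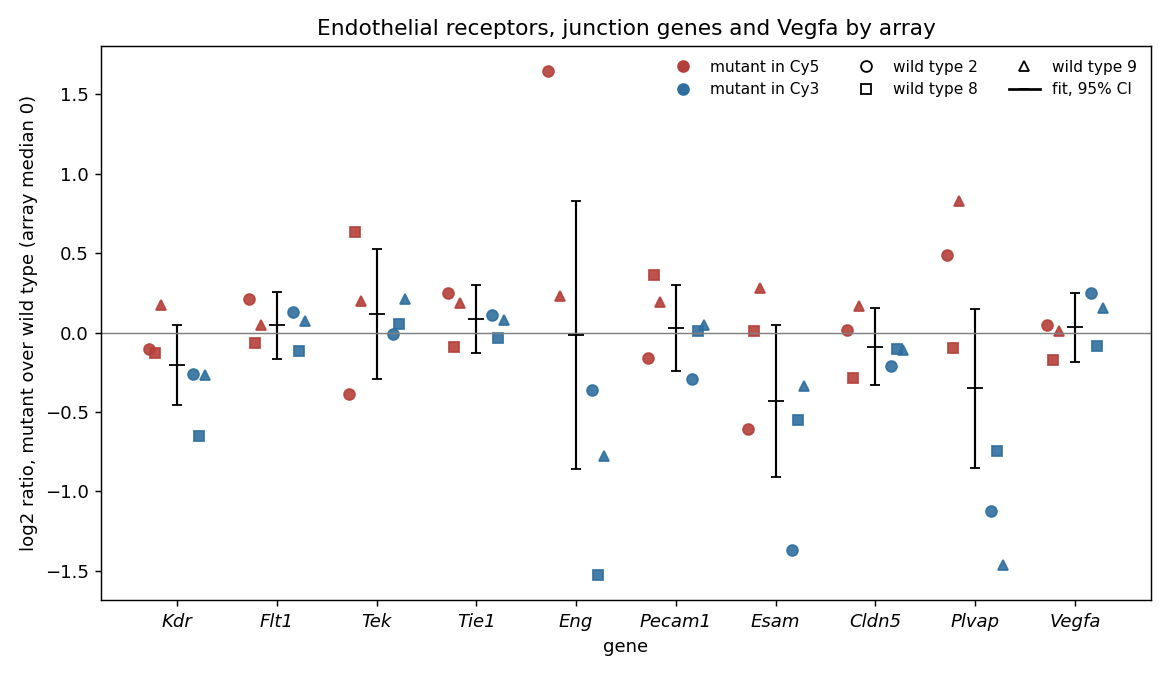
Log2 ratio of mutant over wild type (vertical axis, array median 0) for each of the 10 genes, with 1 point per array. Red points are arrays with the mutant in Cy5 and blue points those with the mutant in Cy3, marker shapes give the wild-type cortex, and black bars are fitted values with 95% confidence intervals. Flt1, Tie1 and Vegfa have the narrowest intervals, every interval includes 0, and red and blue points are apart for Kdr, Eng and Plvap.

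Among the receptors, Kdr had the lowest ratio. It lay at -0.10, -0.13 and 0.17 in mutants 3, 5 and 6 and at -0.263, -0.648 and -0.265 in mutants 1, 4 and 7. Mutant 6 was the only one above 0, and the 3 arrays with the mutant in Cy3 all lay below the 3 with the mutant in Cy5. Its fitted ratio was -0.21 ± 0.10 (standard error), or 0.867-fold of wild type with a 95% confidence interval of 0.728-fold to 1.03-fold (limma, adjusted p = 0.90). The sign depended on centring: when Gapdh control spots set the zero, which moves the median of all probes to 0.27, Kdr lay at 0.055. That zero raises the other genes alike, to 0.31 for Flt1, 0.35 for Tie1, 0.38 for Tek, 0.29 for Pecam1 and 0.29 for Vegfa, and to -0.17 for Esam and -0.091 for Plvap.

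Flt1, the second Vegfa receptor gene, was closer to 0 on every Cy3 array. Its ratios were 0.21, -0.0685 and 0.047 in mutants 3, 5 and 6 and 0.13, -0.12 and 0.075 in mutants 1, 4 and 7. Both mutants set against wild type 8 lay below 0 and the other 4 above it. The fit gave 0.046 with a standard error of 0.083, or 1.03-fold with an interval of 0.893-fold to 1.19-fold (adjusted p = 0.93). Its ratios spread little: the SD of the fit after moderation, 0.18, lay at percentile 9.84 of all tested probes. Without signal levels, a low spread does not show that a probe measured its gene well. Whether Kdr and Flt1 differ from each other was not tested.

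The Tie receptor genes were both slightly above 0. Tie1 had 0.25, -0.0885 and 0.19 in mutants 3, 5 and 6 and 0.11, -0.035 and 0.081 in mutants 1, 4 and 7, the same order of signs over arrays as Flt1. Its fitted ratio was 0.085 (standard error 0.085), with a fold interval of 0.915 to 1.23 (adjusted p = 0.90). Tek spread more widely, with -0.39, 0.63 and 0.20 in mutants 3, 5 and 6 and -0.010, 0.051 and 0.21 in mutants 1, 4 and 7. Here the mutants set against wild type 2 were the 2 below 0, and mutant 5 was the highest. Its fit gave 0.12 with a standard error of 0.16 and a fold interval of 0.816 to 1.44 (adjusted p = 0.91). Without mutant 5 the value was -0.0052.

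Eng, the endoglin gene, was the least precise of the set. It had 1.645 in mutant 3, no value in mutant 5 and 0.23 in mutant 6, against -0.36, -1.53 and -0.78 in mutants 1, 4 and 7. Both Cy5 values were positive and all 3 Cy3 values negative. The fitted ratio on these 5 arrays was -0.014 (standard error 0.31), and the fold interval ran from 0.553 to 1.77 (adjusted p = 0.99). The mean over arrays without weighing the dyes was -0.16. Its sign therefore follows the dye on these arrays, and its ratio between genotypes was not resolved.

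Of the junction genes, Esam had the lowest fitted ratio of all 10. It lay at -0.61, 0.0095 and 0.28 in mutants 3, 5 and 6 and at -1.37, -0.55 and -0.34 in mutants 1, 4 and 7. The 2 lowest arrays, of mutants 1 and 3, were those set against wild type 2. The fit gave -0.43 with a standard error of 0.19, or 0.742-fold with an interval of 0.533-fold to 1.03-fold (adjusted p = 0.90). Without both arrays of wild type 2 it was -0.15 on the other 4.

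Cldn5, the main claudin of brain endothelium, spread less over arrays. It had 0.014, -0.2875 and 0.16 in mutants 3, 5 and 6 and -0.209, -0.10 and -0.11 in mutants 1, 4 and 7. The dye orientations overlapped, and 4 of 6 arrays lay below 0. Its fit gave -0.088 with a standard error of 0.097 and a fold interval of 0.795 to 1.11 (adjusted p = 0.90), but 0.17 with arrays centred on Gapdh control spots and -0.025 without mutant 5.

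Pecam1 encodes an adhesion protein that platelets and some white blood cells also carry. Its ratios were -0.163, 0.36 and 0.195 in mutants 3, 5 and 6 and -0.29, 0.010 and 0.048 in mutants 1, 4 and 7. As for Tek, the 2 values below 0 belonged to the arrays of wild type 2. The fit gave 0.026 with a standard error of 0.11 and a fold interval of 0.845 to 1.23 (adjusted p = 0.97).

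Plvap showed the strongest dye pattern of the genes measured on all arrays. It had 0.49, -0.0945 and 0.83 in mutants 3, 5 and 6, against -1.12, -0.74 and -1.46 in mutants 1, 4 and 7. The Cy5 and Cy3 arrays did not overlap. The fitted ratio was -0.35 (standard error 0.20), or 0.784-fold with an interval of 0.553-fold to 1.11-fold (adjusted p = 0.90). Without mutant 7 it was -0.22, and without mutant 5 -0.23. On Cy5 arrays alone it was 0.41 and on Cy3 arrays alone -1.11.

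Vegfa, made mainly by neural cells of the cortex at this stage, lay near the median probe of the array. Its ratios were 0.045, -0.17 and 0.012 in mutants 3, 5 and 6 and 0.25, -0.087 and 0.15 in mutants 1, 4 and 7. As for Flt1 and Tie1, the 2 mutants set against wild type 8 were those below 0. The fitted ratio was 0.034 (standard error 0.086), and the fold interval under this centring ran from 0.881 to 1.19 (adjusted p = 0.95).

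Over the set, the ratio of 9 of 10 genes was higher with the mutant in Cy5 than in Cy3, all except Vegfa, against 53.9% of all probes. The dye term passed an adjusted p of 0.05 for 0 of 10 genes, against 0.269% of all probes (limma), and its unadjusted p was under 0.05 for 2 of 10 (Plvap and Eng), against 20.0%. Values of the dye orientations did not overlap for 3 of 10 genes (Kdr, Eng and Plvap), against 29.8% of all probes. The shares called and not overlapping were thus close to those of the array as a whole at this number of genes. The share with a higher ratio in Cy5 was larger than over all probes, which was not tested. The difference of Cy5 arrays minus Cy3 arrays was 1.52 for Plvap (standard error 0.31, adjusted p = 0.12) and 1.75 for Eng (standard error 0.51, adjusted p = 0.20). It was 0.65 for Esam and 0.37 for Kdr, and between -0.14 and 0.21 for the other 6. The 4 genes with the largest dye differences included the 3 with the lowest fitted ratios, and the part of the dye in those ratios beyond the fitted term was not tested.

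**Figure D2:**
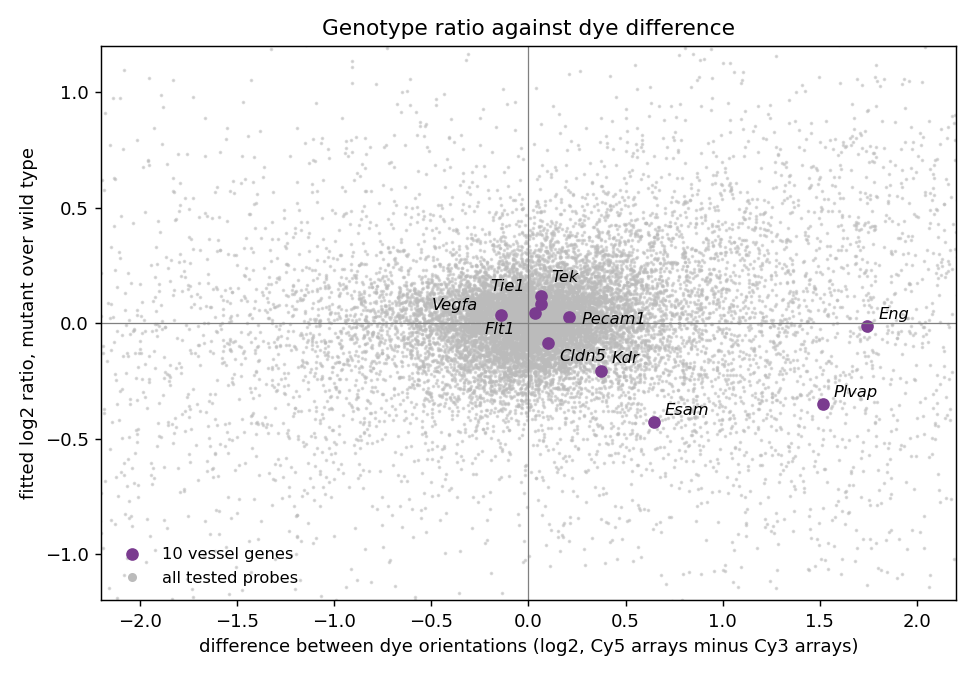
Fitted log2 ratio of mutant over wild type (vertical axis) against the log2 difference between dye orientations, Cy5 arrays minus Cy3 arrays (horizontal axis), for the 10 vessel genes (purple) and all tested probes (grey). The axes leave out 1651 probes. Plvap and Eng lie far to the right at 1.52 and 1.75, and 6 genes lie within the dense centre.

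Each wild-type cortex was used once with either dye, so the mean of its 2 arrays balances the dyes. Plvap had such means of -0.319, -0.42 and -0.3175 against wild types 2, 8 and 9, with an SD of 0.058 (n = 3), although its single arrays ranged from -1.46 to 0.83. Esam had -0.99, -0.27 and -0.029, an SD of 0.50, and Kdr had -0.18, -0.39 and -0.046. These 3 genes lay below 0 against all 3 wild types. Of the 9 genes with values for all 3 pairs 3 kept 1 sign, against 29.3% of 13531 probes. An exact sign-flip permutation test over 3 wild types could not give a two-sided p under 0.25. Over the 6 arrays it gave 0.125 for Kdr, 0.125 for Esam and 0.375 for Plvap, where 0.0313 is the smallest possible. Over arrays, this test took each array as independent and left the dye uncorrected. Arrays share wild types, and Kdr and Plvap differ by dye, so these p-values are descriptive only.

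The other genes did not keep 1 sign. Flt1, Tie1 and Vegfa lay at 0.17, 0.18 and 0.15 against wild type 2 and at -0.094, -0.062 and -0.13 against wild type 8, with 0.061, 0.135 and 0.083 against wild type 9. Tek and Pecam1 had the opposite order, with -0.198 and -0.227 against wild type 2, 0.34 and 0.18 against wild type 8, and 0.20 and 0.12 against wild type 9. Cldn5 had -0.0975, -0.19 and 0.0285. Eng had 0.64 and -0.27 against wild types 2 and 9 and no balanced value against wild type 8.

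**Figure D3:**
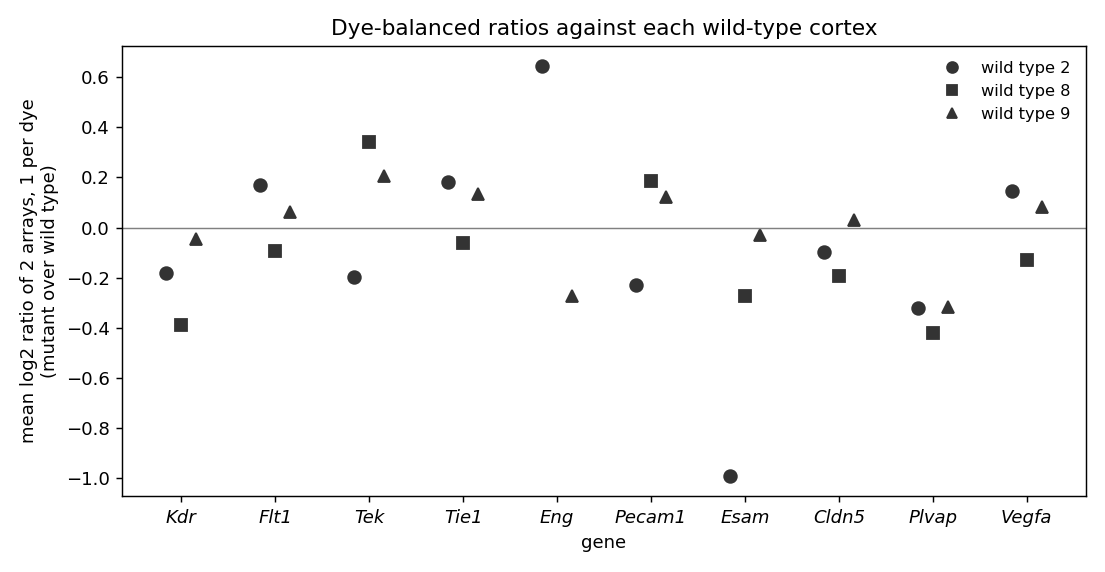
Mean log2 ratio of mutant over wild type of the 2 arrays, 1 per dye, that share a wild-type cortex (vertical axis), for each gene and wild types 2, 8 and 9 (marker shapes). The 3 points of Plvap lie close together between -0.42 and -0.3175, those of Esam between -0.99 and -0.029, and Eng has 2 points.

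By array, the 10 genes had medians of 0.03, -0.0885 and 0.19 in mutants 3, 5 and 6 and of -0.236, -0.11 and -0.03 in mutants 1, 4 and 7. All 10 lay above 0 in mutant 6, and 2 of 10 did in mutant 4.

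Further genes came from lists of vessel pathways, in which a gene is called by its probe with the smallest p. The RNA was of whole cortex, so the ratios of these list genes cannot be assigned to vessel cells. No gene of any list passed an adjusted p of 0.05 (limma). The Vegf list (11 tested, the 3 members included) had 7 genes above and 4 below 0, a median of 0.046, and 1 gene at an unadjusted p under 0.05. This was Plcg1, the phospholipase that acts below Kdr, at 0.56 (standard error 0.15) and above 0 on 6 of 6 arrays (adjusted p = 0.90), while its other probe lay at 0.038. For comparison, 1.60% of all probes passed that unadjusted threshold on the higher side and 2.33% on the lower. Nrp1, a co-receptor for Vegfa, lay at 0.13, and Flt4, the receptor of Vegfc, at 0.28, or 0.087 without mutant 5. In the angiopoietin and Tie list 6 of 7 genes lay above 0, with a median of 0.14. Angpt4 and Dok2 had 0.14 and 0.21, but Angpt4 lay below 0 on every Cy5 array and above 0 on every Cy3 array. The 2 probes of Angpt1, the activating ligand of Tek, disagreed in size at 1.04 on 5 arrays and 0.041 on 6. On the probe at 1.04 the dye orientations did not overlap, and without mutant 5 it lay at 0.58.

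Genes that act with Eng gave 7 above and 6 below 0 among 13, with a median of 0.028. The Tgf-beta receptor gene Tgfbr1 had 0.38, the Bmp receptor gene Bmpr2 0.26 and 0.092 on 2 probes, and Gdf2, the gene of the endoglin and Alk1 ligand Bmp9, -0.16. Tgfbr1 lay at 0.22 without mutant 5, and Gdf2 at -0.088 without mutant 4. The Bmpr2 probe at 0.26 lay at 0.15 without mutant 7. Junction and adhesion genes (19 tested, 4 of them members) had 10 above and 9 below, with a median of 0.022. The tight junction gene Ocln lay at 0.77 with a standard error of 0.38, or 0.39 without mutant 5, where it was 3.13. Jam3 lay at -0.19 and Icam2 at -0.51 on 5 arrays, and the Ocln and Icam2 values did not overlap between dyes. Icam2 lay at -0.25 without mutant 4. Transcription factors of endothelium had 15 of 20 genes above 0, with a median of 0.10 and Hhex, Epas1 and Ets1 at 0.34, 0.15 and 0.39. Without mutant 7 Hhex lay at 0.18, and without mutant 5 Ets1 lay at 0.19. Notch genes had 9 of 11 above 0, with a median of 0.105. Hey1, a Notch target, lay at -0.18, Notch1 at 0.11 and Jag1 at 0.095. Without mutant 5 Hey1 lay at -0.11 and Jag1 at 0.049.

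Other endothelial markers were split, with 11 above and 13 below 0 among 24 and a median of -0.028. Efnb2, the ephrin of arterial endothelium, had 0.31 and Procr, the protein C receptor gene, 0.15, each above 0 on 6 of 6 arrays. Clec14a, an endothelial lectin gene, lay below 0 on its 4 arrays, at -0.49. In the list of brain vessel and barrier genes 10 of 18 lay above 0, with a median of 0.026 and 2 genes at an unadjusted p under 0.05, both higher. Itgav, an integrin subunit by which neural cells and vessels touch the matrix, had 0.36 and was above 0 on 6 of 6 arrays (adjusted p = 0.90), with 0.52 and 0.12 on its other probes. Abcb1a, the efflux pump of the barrier, had 0.36 and 5 of 6 arrays above 0 (adjusted p = 0.90), and Reck, a cofactor of Wnt7 signalling to vessels, 0.31. Pericyte and mural genes had 8 of 13 above 0 and a median of 0.037. Tagln and Acta2, contractile genes of mural cells, lay at 0.46 and 0.27, with Tagln at an unadjusted p under 0.05 (adjusted p = 0.90), and Mcam lay at -0.15.

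Genes that respond to low oxygen, as Vegfa does, had 11 of 19 above 0 and a median of 0.034. P4ha1 had 0.27 and an unadjusted p under 0.05 (adjusted p = 0.90), but its dyes did not overlap, at 0.635, 0.71 and 0.55 in Cy5 and -0.074, 0.16 and -0.39 in Cy3. Hif1a lay at 0.19 and Epas1, the endothelial hypoxia factor, at 0.15.

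Cells that vessels carry or adjoin were summarised beside them. Red blood cell genes were below 0 in 8 of 11 genes, with a median of -0.24, and their array medians lay below 0 on all 6 arrays, between -0.433 and -0.065. This held relative to the median probe: with Gapdh control spots as the zero the list median was 0.016, and 3 of 6 arrays lay above 0, between -0.2 and 0.33. Relative to the median probe, 4 genes had an unadjusted p under 0.05, all lower, against 2.33% of all probes on the lower side. Values of the dye orientations did not overlap for 4 of the 11, Alas2 among them, against 29.8% of all probes. Both counts take a gene by its probe with the smallest p, so the shares over all probes are not like for like. The embryonic globin genes Hbb-bh1 and Hbb-y had -0.36 and -0.42 and the haem synthesis gene Alas2 -0.24 (limma, adjusted p = 0.90 each, below 0 on 6, 5 and 5 of 6 arrays). The fourth was the embryonic globin gene Hba-x with -0.29 on this probe and -0.16 on its other probe, named here after its value was seen. Array medians of the 10 vessel genes lay between -0.236 and 0.19 and were below 0 on 4 of 6 arrays. The part of blood content in the vessel ratios was not tested. Macrophage and microglia genes had 10 of 15 above 0 (median 0.062, with Trem2, Tyrobp and Aif1 at 0.14, -0.089 and -0.087). Meningeal and mesenchymal genes had 7 of 18 above 0 (median -0.044, with Mgp, Postn and Pdgfra at -0.24, -0.54 and, on 5 arrays, 0.66). Cortical progenitor and neuron genes had 7 of 15 above 0 and a median of -0.0026, with Fabp7, Pax6 and Tbr1 at -0.20, 0.13 and -0.13. Over the 41 genes named from all these lists by the smallest p, leaving out 1 array turned no sign. It moved the fitted value of 17 by over 1.5 times. Since the same arrays chose these genes, the kept signs are no independent check. With Gapdh control spots as the zero, Gdf2, Jam3, Hey1, Mcam, Alas2, Tyrobp, Aif1, Mgp, Fabp7 and Tbr1 turned above 0. Jam3 then lay at 0.070 and Tbr1 at 0.13. Icam2, Clec14a, Hbb-bh1, Hbb-y and Postn stayed below 0, with Postn at -0.28. Dye orientations also did not overlap for Angpt1, Angpt4, Bmpr2, Notch1, Jag1, Procr, Reck, Trem2, Mgp and Pdgfra on the probes chosen. The share over all probes was 29.8%.

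**Figure D4:**
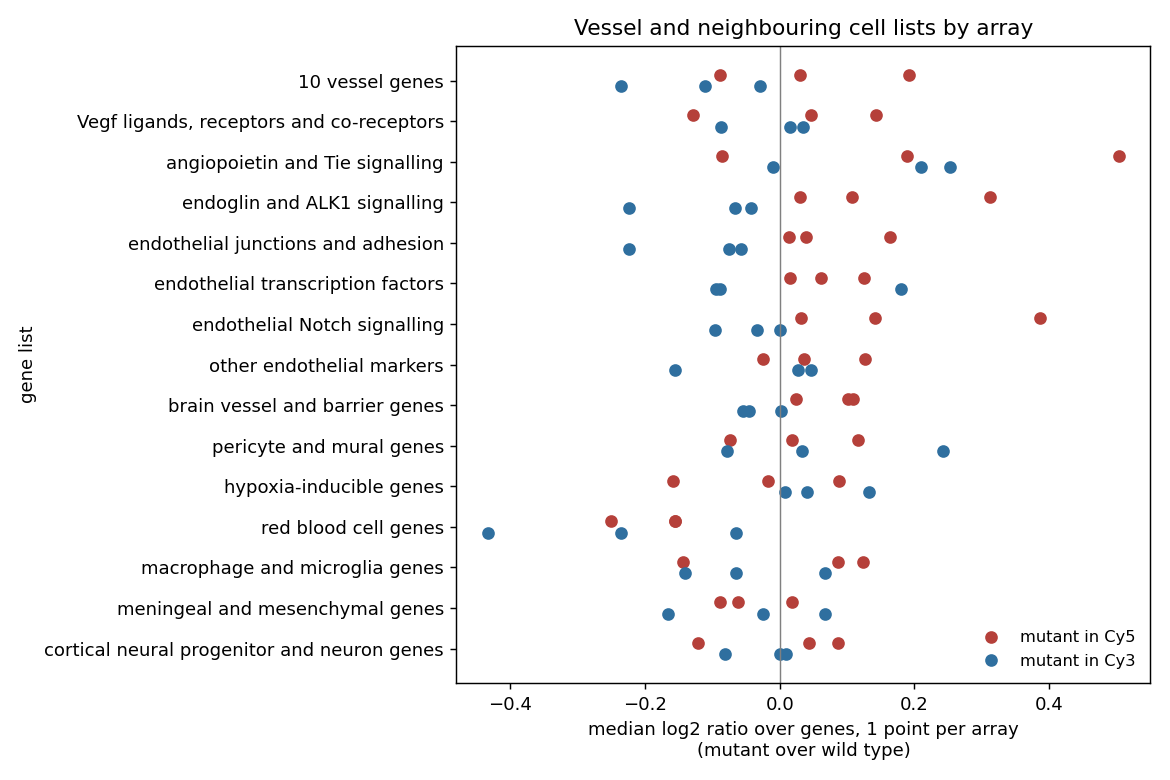
Median log2 ratio of mutant over wild type over the genes of each list (horizontal axis), with 1 point per array, red with the mutant in Cy5 and blue with the mutant in Cy3. The red blood cell list is the only one here whose 6 points all lie below 0 with this centring, and the medians of the 10 vessel genes lie between -0.236 and 0.19.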

How the data were processed

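The authors deposited log2 ratios of 6 arrays with Cy3- and Cy5-labelled total RNA, extracted with Trizol per the labels' protocols. How spots were scanned, background-corrected, filtered and normalized before deposit is not given in the sources used here. These deposited log2 values were read as Cy5 over Cy3, since the targeted gene changed sign with the dye labels. Array medians were not 0, so the scale and direction rest on the values. Entries at the ceiling of 16.61 (588) were treated as missing, and 232 Gapdh control spots were left out of the tests. Ratios were given the sign of mutant over wild type, and the median probe of each array was subtracted. Without signal levels, dim and saturated spots cannot be told from others, and the number of arrays limits the precision.

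Probes measured on 4 or more arrays, with 2 or more in each dye orientation, were fitted in limma 3.58.1 (R 4.3.3) with a genotype and a dye term and the shared wild type as a random block (consensus correlation 0.25). The threshold was a Benjamini-Hochberg adjusted p of 0.05. Across probes, turned ratios correlated between 0.18 and 0.35 within and between -0.44 and -0.14 across dye orientations, a description with shared dyes. Each mutant is a separate embryo. Names came from the platform annotation through Entrez identifiers. The members and lists were chosen with earlier results of these data known. The genes named are the 10 members, Mest and, per list, the 3 other genes with the smallest p, with Hba-x added after its value was seen. Promoter sequences are from RefSeq (GRCm38.p6). The fit was also run on 3 simulated datasets with normally distributed errors, drawn with its own dye terms and spreads. The changes set there were larger than the fitted ratio of any member, so detection of ratios of that size was not tested. Alternatives covered the block, dye term, centring, scaling, missing values, probes per gene, moderation, arrays left out and the direction of the ratio.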

Additional observations from a re-analysis of the deposited data

How the results depend on the processing

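Each ratio already pairs 1 mutant with 1 wild type on an array, and the shared wild type was the block. None of the 10 vessel genes was called for genotype under any of 25 alternatives, of which 20 gave a value for Eng. The number of probes called for genotype was 0 in all of them except with ratios read as already turned, where it was 47 (the dye calls by construction). Leaving out any 1 array gave 0 (lowest 0, highest 0).

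Signs of uncalled members changed as follows, and the cause was not tested. Without centring Kdr, Eng and Cldn5 were 0.047, 0.16 and 0.16, and centred on Gapdh control spots 0.055, 0.23 and 0.17. Without the block Eng was 0.025, and with mutant 3's wild type as its own block Eng and Pecam1 were 0.045 and -0.0024. Without wild type 2 Flt1 and Vegfa were -0.016 and -0.023, without wild type 8 Eng and Pecam1 were 0.18 and -0.053, and without wild type 9 Pecam1 was -0.021. On Cy5 arrays alone Eng, Plvap and Vegfa were 0.94, 0.41 and -0.038, and on Cy3 arrays alone Pecam1 was -0.078. With ratios read as already turned, Kdr, Eng, Esam, Cldn5, Plvap and Vegfa were 0.19, 0.87, 0.32, 0.051, 0.76 and -0.072. With 1 array left out, Eng ranged from -0.12 to 0.18, Tek from -0.0052 to 0.24, Pecam1 from -0.031 to 0.083, Plvap from -0.50 to -0.22 and Cldn5 from -0.13 to -0.025. With mutant 3's wild type as its own block, 1 of 10 members (Esam) had an unadjusted p under 0.05, beside 684 of 17476 probes (limma). With ratios read as already turned it was 2 of 10 (Plvap and Eng), beside 3501 of 17476. The alternatives for Flt4, Ocln, the other genes named from the lists and the red blood cell list were chosen after seeing the data.

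The median over members, -0.031, was 0.22 without centring and 0.23 centred on Gapdh spots, beside 0.26 and 0.27 for the median probe, and ranged from -0.044 to 0.044 with 1 array left out. The 47 dye calls became 1 without the block, 658 without centring, 10 with Gapdh centring, 150 after quantile normalization, 176 with scaling, 31 with ceiling values kept, 135 with values on all 6 arrays, 0 without moderation, 0 without either pair of a wild type, and 0 to 26 with 1 array left out. With ratios read as already turned they were 0. With 2 arrays left out the block correlation of all 6 was used.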

Other observations

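On the deposited scale, Cy5 over Cy3 without turning or centring, Kdr, Eng and Plvap were above 0 on every array with a value, whichever dye held the mutant, against 3.79% of the 17476 tested probes. Kdr lay between 0.063 and 0.634 on 6 arrays, Eng between 0.355 and 1.905 on 5, and Plvap between 0.158 and 1.745 on 6. Array medians on this scale lay between -0.585 and 0.7635, so a value above 0 need not lie above its array's median. Kdr at 0.159 in mutant 3 and 0.634 in mutant 5, and Plvap at 0.669 in mutant 5, lay below the medians of 0.26 and 0.7635. Kdr, Eng and Plvap are also the genes whose dye orientations did not overlap. Both patterns come from the same deposited values, so neither is an independent check of the other. Of the 59 deposited values of the 10 genes, 1 matched, at 3 decimals, log2 of 1 whole number over another with neither above 10, against 7.83% of all deposited values.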
